A study of Homo sapiens with 9 samples.

Results

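Among the genes of the route from cytosolic acetyl-CoA to desaturated fatty acids, the RNA of SREBF1, ACLY, ACACA, FASN, SCD and FADS1 was lower in the BCKDK knockout clone KO1 than in Vector cells, and SCD5 was higher. In the other knockout clone, KO2, ACLY, SCD and ACSS2 were lower than in Vector and SCD5 and FADS2 were higher. Of these KO2 calls only those of ACLY and SCD5 held in all 17 other settings of the analysis. The call was lost in 6 settings for SCD, 7 for FADS2 and 8 for ACSS2. The 10 genes described here were chosen by name: SREBF1, ACLY, ACSS2, ACACA, FASN, ELOVL6, SCD, SCD5, FADS1 and FADS2. All 10 were found among the 58735 genes of the deposited table, and all 10 passed the filter on low values.

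KO1 and KO2 are 2 lines of H1299, an established human lung cancer cell line, in which BCKDK was edited with CRISPR and single cells were grown out by limiting dilution. Vector is H1299 transduced with the lentiCRISPR v2 plasmid, with its genotype labelled wild type. No drug or time point is named for any group. Each group has 3 RNA sequencing libraries, of 16002212 to 17090445 recovered reads. Each knockout line is 1 clone and Vector is not described as one, so editing of BCKDK and single-cell cloning cannot be told apart. The libraries are not stated to come from separate cultures, so each p-value measures the spread between libraries, which may be technical. KO1 and KO2 are set against the same Vector libraries.

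Fatty acid synthesis starts in the cytosol, where ACLY cleaves citrate to acetyl-CoA and ACSS2 makes acetyl-CoA from acetate. ACACA, acetyl-CoA carboxylase 1, turns it into malonyl-CoA, and FASN builds palmitate from both. ELOVL6 lengthens palmitate, SCD and SCD5 place a double bond at the delta-9 position, and FADS1 and FADS2 are the delta-5 and delta-6 desaturases of polyunsaturated fatty acids. SREBF1 encodes the SREBP1 transcription factors, which are released from a membrane precursor and bind the promoters of many of these genes. BCKDK is the kinase that inhibits the branched-chain ketoacid dehydrogenase complex, and it is also known to phosphorylate ACLY. RNA sequencing does not measure that phosphorylation, the released form of SREBP1 or lipid.

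The labels were checked with BCKDK itself. Levels are in FPKM, a read count divided by exon length and by a scaling total for each library. BCKDK measured 1.91, 2.06 and 1.67 FPKM in KO1 and 0.628, 0.576 and 0.287 FPKM in KO2, against 13.7, 12.9 and 17.5 FPKM in Vector. All 6 knockout libraries were lower than all 3 Vector libraries. In Vector and in KO2 the third replicate was unlike the other libraries of the same label. Their chi-square per degree of freedom against those was 39.1 to 46.4, while the other pair gave 2.47 within KO2 and 6.21 within Vector. The labelled adenocarcinoma type is not marked strongly in this RNA: EPCAM, KRT19, CDH1, NKX2-1, SFTPB and SFTPC were at or near 0, NAPSA reached at most 0.514 FPKM, and VIM, a mesenchymal marker, ranged between 454 and 817 FPKM. The epithelial keratins KRT8 and KRT18 were present and differed between the groups. KRT8 measured 112 to 129.8 FPKM in KO1, 15.4 to 17.6 FPKM in KO2 and 13.5 to 20.4 FPKM in Vector, and KRT18 measured 314 to 359 FPKM in KO1, 86.4 to 102.8 FPKM in KO2 and 53.2 to 71.2 FPKM in Vector. Both rose in KO1 (KRT8 log2 2.83, limma adjusted p = 2.16e-06, and KRT18 log2 2.38, limma adjusted p = 3.4e-06), and KRT18 also rose in KO2 (log2 0.54, limma adjusted p = 0.0165). The summed FPKM of the 5 epithelial markers was 425.5 to 489 in KO1, 101.9 to 120.5 in KO2 and 66.7 to 91.7 in Vector. Nearly all of that sum is KRT8 and KRT18, as EPCAM, KRT19 and CDH1 were at or near 0. CDH2, a mesenchymal marker, was also highest in KO1. It measured 11.1 to 12.3 FPKM in KO1, 6.67 to 8.54 FPKM in KO2 and 6.89 to 8.13 FPKM in Vector. The part of these marker differences in the results below was not tested. PTPRC, PECAM1, ADIPOQ, PLIN1 and ALB, which mark blood, endothelium, fat cells and hepatocytes, were at or near 0.

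The promoters of SCD, SCD5 and ACLY are shown because the 2 delta-9 desaturase genes moved in opposite directions in both clones and ACLY fell in both. They are the 250 bases before the transcription start, from RefSeq on GRCh38.p14, at chr10:100346983-100347232 on the plus strand, chr4:82798797-82799046 on the minus strand and chr17:41919023-41919272 on the minus strand. Letters run 5′ to 3′ in the direction of transcription, and capitals mark CCAAT on either strand, the letters bound by NF-Y.
SCD: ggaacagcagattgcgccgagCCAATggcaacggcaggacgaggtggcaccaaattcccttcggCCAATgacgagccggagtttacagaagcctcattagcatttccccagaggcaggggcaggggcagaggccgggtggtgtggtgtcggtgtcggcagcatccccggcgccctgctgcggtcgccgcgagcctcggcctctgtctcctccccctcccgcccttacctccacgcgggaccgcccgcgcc
SCD5: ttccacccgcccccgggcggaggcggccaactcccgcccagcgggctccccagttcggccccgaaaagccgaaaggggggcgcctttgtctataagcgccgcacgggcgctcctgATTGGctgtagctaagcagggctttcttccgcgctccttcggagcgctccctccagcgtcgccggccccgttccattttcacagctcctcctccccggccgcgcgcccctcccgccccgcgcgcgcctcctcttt
ACLY: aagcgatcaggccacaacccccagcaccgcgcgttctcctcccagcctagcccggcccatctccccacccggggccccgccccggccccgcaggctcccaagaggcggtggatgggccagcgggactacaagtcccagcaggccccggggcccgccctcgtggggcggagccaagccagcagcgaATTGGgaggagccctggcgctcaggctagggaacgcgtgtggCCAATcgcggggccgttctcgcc
CCAAT on either strand was present in windows of 5 genes, ACACA, ACLY, ACSS2, SCD and SCD5, that is in 7 of the 14 RefSeq windows matched to 9 of the 10 genes, and in 32.008% of all 35116 windows of this length. Both delta-9 desaturase genes hold these letters. GGGCGG, the letters bound by Sp1, was present in 12 of the 14 windows and in 42.639% of all. CACGTG, the E-box, was in 0 of the 14 and in 6.345% of all, and CACCCCA was in 1 of the 14, at ACSS2, and in 7.003% of all. GGGCGG and CCAAT were counted also where they overlap, and all were searched on both strands. The 14 windows are not separate. Those of ACLY overlap and share the same CCAAT letters, and those of FADS2 overlap too. Counts of windows therefore hold some bases more than once.

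**Figure D1:**
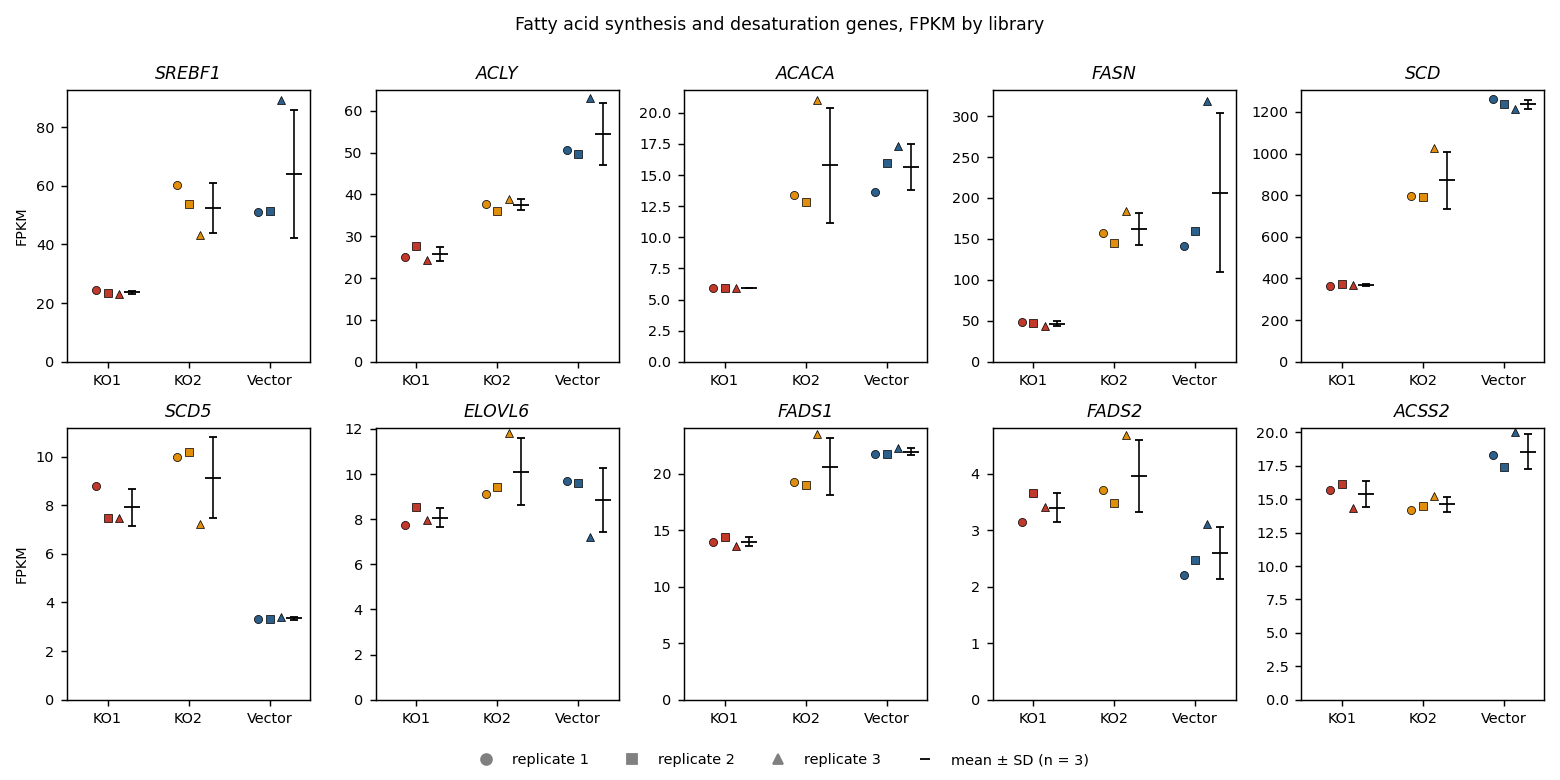
FPKM of the 10 genes in each library of KO1, KO2 and Vector, with every library as a point (its shape gives the replicate) and the mean ± SD beside it (n = 3). FASN at 43.1 to 48.8 FPKM in KO1 lies below all other libraries, and the Vector library at 318 FPKM stands above the other Vector libraries.

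Levels per exon length had nearly the same order in the 3 groups. SCD was the highest of the 10 at 369 FPKM in KO1, 871 FPKM in KO2 and 1236 FPKM in Vector, and FASN was second. In the ranking of all genes by mean level SCD stood at place 63 in KO1, 25 in KO2 and 21 in Vector, and FASN stood at place 813 in KO1, 132 in KO2 and 106 in Vector. FADS2 was the lowest of the 10 in each group, at 3.40 FPKM in KO1, 3.96 FPKM in KO2 and 2.60 FPKM in Vector. Neighbours in this order overlapped between ACSS2 and FADS1 and between ELOVL6 and SCD5 in KO1, and between FADS1, ACACA and ACSS2 and between ELOVL6 and SCD5 in KO2. In Vector only SREBF1 and ACLY overlapped. ACACA stood ninth in KO1 at 5.93 FPKM, below SCD5 and ELOVL6, while it was above both in KO2 and Vector.

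In KO1 against Vector 1 of the 10 rose and 6 fell, and 9 had libraries that did not overlap with Vector. The test was limma on log2(FPKM + 1) over the 16426 genes whose mean reached 0.5 FPKM, with Benjamini-Hochberg adjustment and a threshold of 0.05. Over those genes 34.1% were called in this comparison, 17.4% higher and 16.7% lower, and 50.1% did not overlap. With library size scaling the calls over all genes divided into 2211 higher and 3298 lower, against 2865 and 2744. The median log2 change of the 10 genes was -0.83, while that of all genes was 0.01. Because 1 FPKM is added before the logarithm, a log2 change below is smaller than the true change where a gene is low.

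In KO2 against Vector 2 of the 10 rose and 3 fell, and 5 did not overlap with Vector. Over all genes 27.9% were called in that comparison, 12.9% higher and 15% lower, and 39% did not overlap. The median of the 10 was -0.17, while that of all genes was -0.005. Directly between the clones, 6 of the 10 were lower in KO1 than in KO2, 0 were higher, and 7 did not overlap. There 30.9% of all genes were called, 16.4% higher and 14.5% lower in KO1, and 53.6% did not overlap. Library size scaling gave 1936 higher and 2918 lower between the clones, against 2693 and 2386. Without Vector replicate 3 and KO2 replicate 3 together, 2 rose and 8 fell in KO1, 2 rose and 4 fell in KO2, and 8 were lower in KO1 than in KO2. With these libraries left out 56.8% of all genes were called in KO1, 49.5% in KO2 and 47.7% between the clones. In bulk RNA, fewer cells with a transcript and less of it per cell cannot be told apart.

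**Figure D2:**
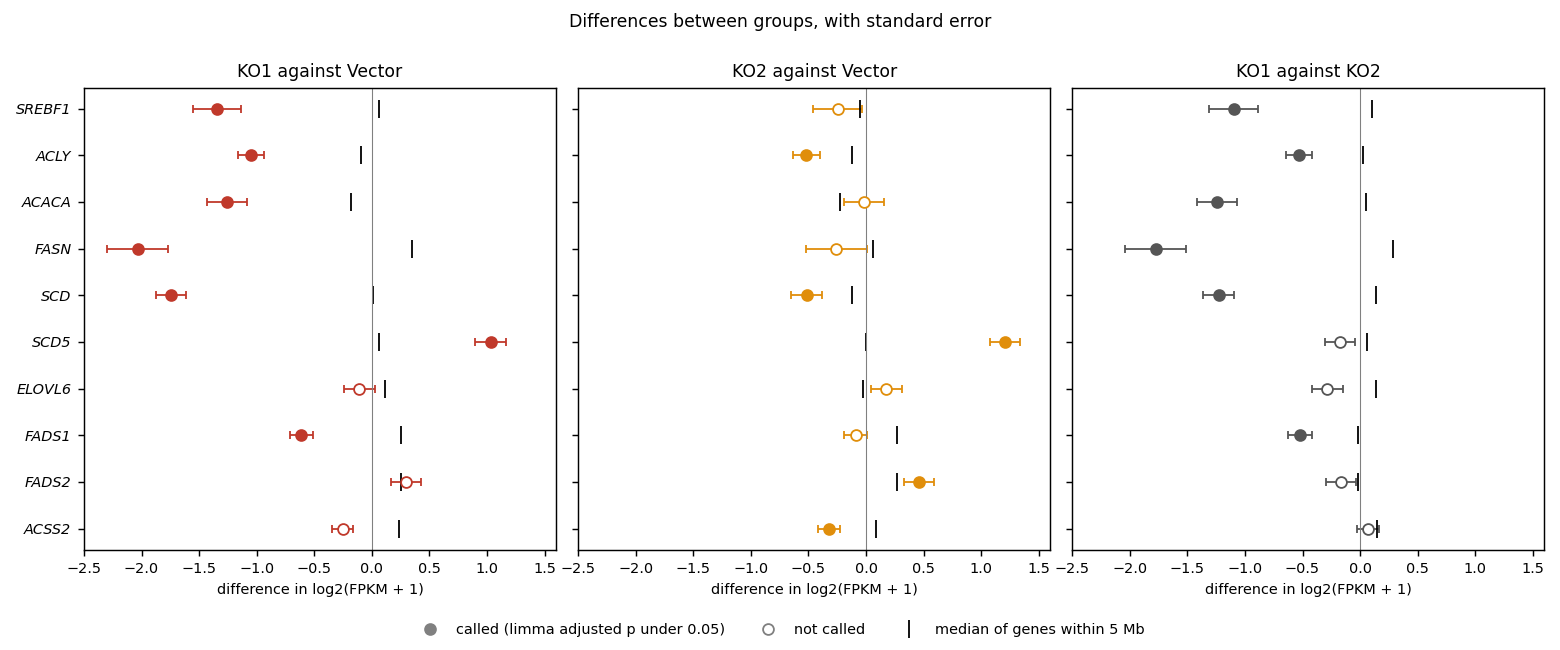
Log2 change of each of the 10 genes on the log2(FPKM + 1) scale, with SE, for each clone against Vector and for KO1 against KO2; filled points passed the test, open points did not, and black ticks are the median of genes within 5 Mb. FASN lies at -2.03 in KO1 and -0.26 in KO2 against Vector, whereas SCD5 lies at 1.03 in KO1 and 1.20 in KO2.

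The transcription factor gene SREBF1 (ENSG00000072310, chromosome 17, 17810399 to 17837002 of hg38, minus strand) measured 24.3, 23.6 and 23.2 FPKM in KO1, 60.2, 53.6 and 43.3 FPKM in KO2 and 51.2, 51.5 and 89.3 FPKM in Vector. All KO1 libraries were below all others, KO2 overlapped with Vector, and Vector replicate 3 was 1.74 times the mean of the other Vector libraries. SREBF1 fell in KO1 (log2 -1.35, SE 0.21, limma adjusted p = 0.00129) and did not pass in KO2 (log2 -0.25, limma adjusted p = 0.42). Without Vector replicate 3 the change in KO1 was -1.08 and still passed. SREBF1 was lower in KO1 than in KO2 (log2 -1.10, SE 0.21, limma adjusted p = 0.00424). The gene has 2 start sites that give SREBP1a and SREBP1c, and the table holds their sum. It shares 556 exon bases with RAI1 on the other strand, which averaged 13.5 FPKM over the 9 libraries. The strand setting is not given in the sources used here, so reads of the shared bases cannot be told apart.

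ACLY (ENSG00000131473, chromosome 17, 41866908 to 41930542, minus strand), the citrate-cleaving enzyme, measured 25.1, 27.6 and 24.4 FPKM in KO1, 37.6, 36.1 and 38.9 FPKM in KO2 and 50.6, 49.8 and 63.0 FPKM in Vector. The 3 groups did not overlap with each other. ACLY averaged 25.7 ± 1.67 FPKM in KO1, 37.5 ± 1.37 FPKM in KO2 and 54.4 ± 7.41 FPKM in Vector (SD, n = 3 each). It fell in KO1 (log2 -1.05, SE 0.11, limma adjusted p = 0.000161) and in KO2 (log2 -0.52, SE 0.11, limma adjusted p = 0.0095). It was lower in KO1 than in KO2 by a log2 difference of -0.53 (SE 0.11, limma adjusted p = 0.00748). ACLY and SCD were the only 2 of the 10 that passed in all 3 comparisons, and the ACLY calls against Vector held in all 17 other settings tried for each clone.

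ACSS2 (ENSG00000131069, chromosome 20, 34872146 to 34927962, plus strand), the acetate-using counterpart of ACLY, measured 15.7, 16.2 and 14.3 FPKM in KO1, 14.2, 14.5 and 15.2 FPKM in KO2 and 18.3, 17.4 and 20.0 FPKM in Vector. Both clones lay below Vector and overlapped with each other. The fall passed the test in KO2 (log2 -0.32, SE 0.10, limma adjusted p = 0.0315), and did not pass in KO1 (log2 -0.26, limma adjusted p = 0.0642). The KO2 call was lost in 8 of 17 other settings, among them leaving out Vector replicate 1, any 1 KO1 library, KO2 replicate 1 or KO2 replicate 2, with limma adjusted p between 0.0525 and 0.1. It was also lost with a replicate block (0.0687). In KO1 the change passed without KO2 replicate 3 (0.0477), with library size scaling (log2 -0.35, limma adjusted p = 0.0164), without both libraries that stood apart (log2 -0.20, limma adjusted p = 0.0275) and with neighbours subtracted (log2 -0.49, limma adjusted p = 0.00122). The clones did not differ beyond the threshold (log2 0.07, SE 0.10, limma adjusted p = 0.628). The ratio of ACSS2 to ACLY was 0.625, 0.586 and 0.586 in KO1, 0.377, 0.400 and 0.392 in KO2 and 0.361, 0.350 and 0.318 in Vector. All KO1 ratios were above all others, and all KO2 ratios were above all Vector ratios. An exact two-sided permutation test of 3 against 3 libraries cannot give a p below 0.1, and the ratios are given as values with no test.

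ACACA (ENSG00000278540, chromosome 17, 37084988 to 37406818, minus strand) measured 5.90, 5.95 and 5.94 FPKM in KO1, 13.4, 12.9 and 21.1 FPKM in KO2 and 13.7, 15.9995 and 17.3 FPKM in Vector. The KO1 libraries were nearly identical and below all others, and KO2 overlapped with Vector. ACACA fell in KO1 (log2 -1.26, SE 0.17, limma adjusted p = 0.000623) and stood at -0.02 in KO2 (limma adjusted p = 0.95). KO2 replicate 3 was 1.61 times the mean of the other KO2 libraries. ACACA was lower in KO1 than in KO2 (log2 -1.24, SE 0.17, limma adjusted p = 0.000794). Its neighbours within 5 Mb had a median of -0.18 in KO1, and with that subtracted the change was -1.08.

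FASN (ENSG00000169710, chromosome 17, 82078333 to 82098332, minus strand), the multi-domain synthase of palmitate, measured 48.8, 47.5 and 43.1 FPKM in KO1, 157, 145 and 184 FPKM in KO2 and 141, 160 and 318 FPKM in Vector. All KO1 libraries were below all others and KO2 overlapped with Vector, where replicate 3 was 2.11 times the mean of the other libraries. FASN averaged 46.5 ± 3.02 FPKM in KO1, 162 ± 19.9 FPKM in KO2 and 206 ± 97.0 FPKM in Vector (SD, n = 3 each). It fell in KO1 (log2 -2.03, SE 0.26, limma adjusted p = 0.000442), and only 79 of the 16426 genes had a lower log2 change in KO1. Without Vector replicate 3 the FASN change in KO1 was -1.68 and still passed. In KO2 it did not pass (log2 -0.26, limma adjusted p = 0.506), and it was lower in KO1 than in KO2 (log2 -1.78, SE 0.26, limma adjusted p = 0.0011). Neighbours of FASN within 5 Mb had a median of 0.35 in KO1, so the change with neighbours subtracted was -2.38.

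Together these 4 genes, SREBF1, ACLY, ACACA and FASN, lie on chromosome 17 but not next to each other. The ratio of FASN to ACACA was 8.28, 7.99 and 7.25 in KO1, 11.7, 11.3 and 8.74 in KO2 and 10.4, 10.01 and 18.3 in Vector. KO1 lay below both other groups, which overlapped. The ratio of FASN to SREBF1 was 2.01, 2.02 and 1.86 in KO1, 2.60, 2.71 and 4.25 in KO2 and 2.76, 3.11 and 3.56 in Vector. Here too KO1 was below all other libraries.

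SCD (ENSG00000099194, chromosome 10, 100347124 to 100364834, plus strand), the main delta-9 desaturase of human cells, measured 365, 373 and 368 FPKM in KO1, 796, 789 and 1028 FPKM in KO2 and 1259.9, 1236 and 1214 FPKM in Vector. The 3 groups did not overlap. It fell in KO1 (log2 -1.74, SE 0.13, limma adjusted p = 1.75e-05), to 29.8% of the Vector mean, and only 147 of the 16426 genes had a lower log2 change. In KO2 it fell by a smaller log2 change (-0.52, SE 0.13, limma adjusted p = 0.0186), to 70.5% of the Vector mean. That KO2 call was lost in 6 of 17 other settings, with limma adjusted p = 0.0574 without Vector replicate 1, 0.0551 without Vector replicate 2, 0.0684 without KO2 replicate 1 and 0.0729 without KO2 replicate 2. The call in KO1 held in all 17. SCD was lower in KO1 than in KO2 (log2 -1.23, SE 0.13, limma adjusted p = 0.00019).

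SCD5 (ENSG00000145284, chromosome 4, 82629539 to 82798857, minus strand), the second human delta-9 desaturase, measured 8.79, 7.46 and 7.49 FPKM in KO1, 9.97, 10.2 and 7.21 FPKM in KO2 and 3.31, 3.33 and 3.42 FPKM in Vector. Every knockout library was above every Vector library, and the clones overlapped. SCD5 rose in KO1 (log2 1.03, SE 0.13, limma adjusted p = 0.000399) and in KO2 (log2 1.20, SE 0.13, limma adjusted p = 0.000215), and both calls held in all 17 other settings. The clones did not differ beyond the threshold (log2 -0.17, SE 0.13, limma adjusted p = 0.353), but did without KO2 replicate 3 (log2 -0.32, limma adjusted p = 0.0393).

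The ratio of SCD to SCD5 was 41.5, 50.0 and 49.1 in KO1, 79.8, 77.4 and 142.6 in KO2 and 380, 371 and 355 in Vector. The 3 groups did not overlap, with Vector highest and KO1 lowest. SCD5 made up 1.96% to 2.35% of the summed FPKM of both in KO1, 0.696% to 1.28% in KO2 and 0.262% to 0.281% in Vector. SCD was therefore the larger part in every library.

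**Figure D3:**
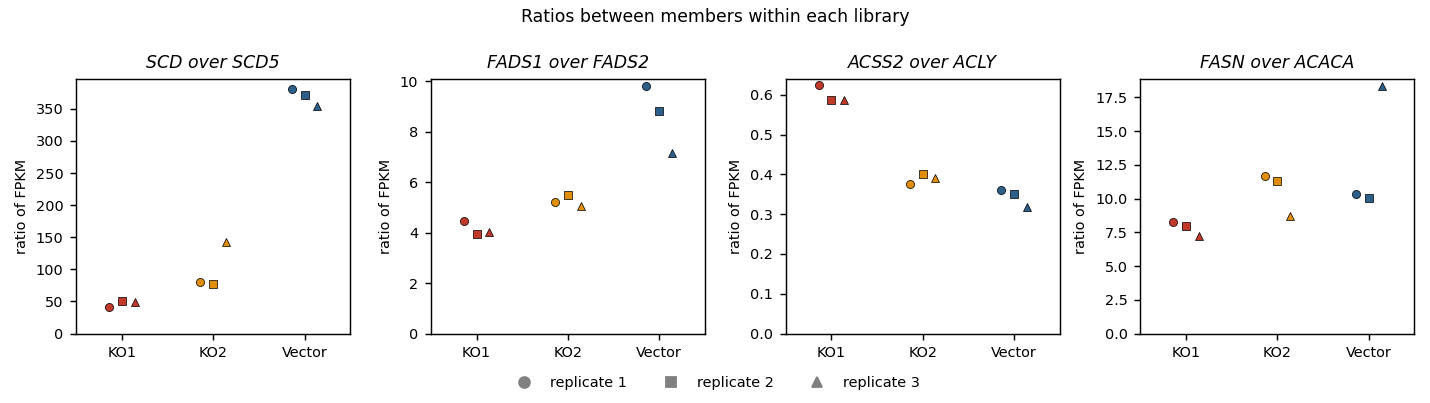
Ratios of FPKM for SCD over SCD5, FADS1 over FADS2, ACSS2 over ACLY and FASN over ACACA, with 1 point per library of KO1, KO2 and Vector on linear axes. The ratio of SCD to SCD5 is 41.5 to 50.0 in KO1, 77.4 to 142.6 in KO2 and 355 to 380 in Vector.

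ELOVL6 (ENSG00000170522, chromosome 4, 110045846 to 110199199, minus strand), which lengthens palmitate to stearate, measured 7.73, 8.52 and 7.98 FPKM in KO1, 9.10, 9.43 and 11.8 FPKM in KO2 and 9.69, 9.63 and 7.21 FPKM in Vector. Both clones overlapped with Vector. The log2 changes were -0.11 in KO1 (SE 0.14, limma adjusted p = 0.578) and 0.18 in KO2 (SE 0.14, limma adjusted p = 0.367). With Vector replicate 3 left out they were -0.23 in KO1 and 0.05 in KO2, which did not pass, and without both libraries that stood apart the KO1 value passed (log2 -0.23, limma adjusted p = 0.0102). Without KO2 replicate 3 the KO2 value was 0.07. KO1 minus KO2 was -0.28 (SE 0.14, limma adjusted p = 0.144). It passed with library size scaling (log2 -0.38, limma adjusted p = 0.0486), with neighbours subtracted (log2 -0.42, limma adjusted p = 0.0129) and without both libraries (log2 -0.18, limma adjusted p = 0.034).

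FADS1 (ENSG00000149485, chromosome 11, 61799625 to 61829318, minus strand) measured 14.0, 14.4 and 13.6 FPKM in KO1, 19.3, 19.0 and 23.5 FPKM in KO2 and 21.7, 21.8 and 22.3 FPKM in Vector. KO1 lay below all other libraries, and KO2 spanned the Vector values. FADS1 fell in KO1 (log2 -0.61, SE 0.10, limma adjusted p = 0.00173), stood at -0.09 in KO2 (limma adjusted p = 0.545) and was lower in KO1 than in KO2 (log2 -0.52, SE 0.10, limma adjusted p = 0.00452).

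FADS2 (ENSG00000134824, chromosome 11, 61792980 to 61867354, plus strand) measured 3.14, 3.65 and 3.40 FPKM in KO1, 3.72, 3.48 and 4.68 FPKM in KO2 and 2.22, 2.47 and 3.11 FPKM in Vector. Every knockout library was above every Vector library, and the clones overlapped. FADS2 rose in KO2 (log2 0.46, SE 0.13, limma adjusted p = 0.0267) but not in KO1 (log2 0.30, SE 0.13, limma adjusted p = 0.108). The KO2 call was lost in 7 of 17 other settings, with limma adjusted p = 0.0927 without Vector replicate 1, 0.079 without Vector replicate 2, 0.0535 without KO2 replicate 1 and 0.0639 without KO2 replicate 3. Without Vector replicate 3 the change in KO1 was 0.40 and passed (limma adjusted p = 0.028). With the median of neighbours subtracted, which was 0.25 in KO1 and 0.27 in KO2, the FADS2 change was 0.05 in KO1 and 0.19 in KO2, and neither passed. FADS1 and FADS2 share 490 exon bases on opposite strands, and reads of those bases cannot be told apart. The ratio of FADS1 to FADS2 was 4.44, 3.94 and 4.01 in KO1, 5.19, 5.48 and 5.03 in KO2 and 9.81, 8.82 and 7.16 in Vector, with no overlap between the groups.

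**Figure D4:**
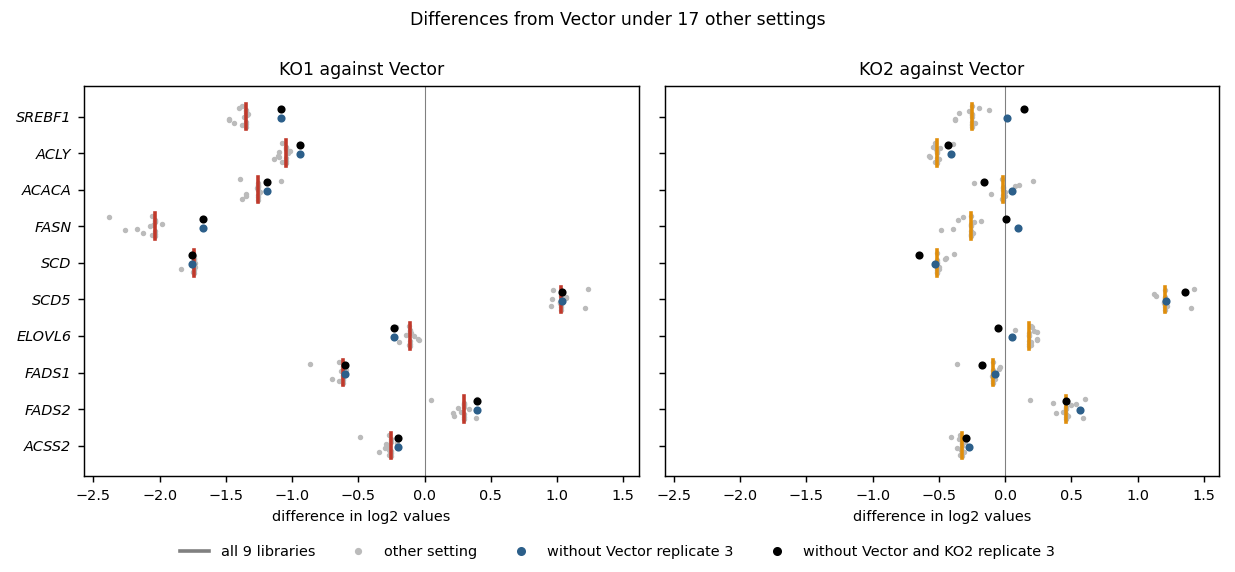
Log2 change of each of the 10 genes in KO1 and in KO2 against Vector with all 9 libraries (coloured line) and under the 17 other settings (points; blue without Vector replicate 3, black without Vector and KO2 replicate 3). SCD in KO1 stays between -1.84 and -1.73, while ACACA in KO2 lies between -0.23 and 0.21.

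Among the 5 genes whose level over the 9 libraries was most like FASN, by Pearson correlation of log2(FPKM + 1) among 6916 protein-coding genes averaging 5 FPKM or more, were H6PD (r 0.995), LTBP2 (0.992), TOB2 (0.990) and DCAF5 (0.989). H6PD, an NADPH-producing enzyme of the endoplasmic reticulum, measured 5.40, 5.94 and 5.67 FPKM in KO1, 10.99, 10.48 and 11.25 FPKM in KO2 and 10.5, 11.2 and 16.1 FPKM in Vector. For SCD they included RFLNB (0.995), AREL1 (0.995), YY1 (0.993) and SPTLC2 (0.989). The libraries fall into 3 groups, and the correlations are descriptions with no test.

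Around these genes, 11 lists of the pathway were described by counts. They hold 148 other genes and are read against the share of all genes called in each comparison. For list counts from the fit of all 9 libraries that share was 34.1% in KO1 and 27.9% in KO2 against Vector, and 30.9% between the clones. In fits that leave libraries out the share is different. A list near its share is not a result about that list.

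Of 9 fitted genes that supply acetyl-CoA, citrate and NADPH, 1 rose and 3 fell in KO1, and 0 rose and 2 fell in KO2, with medians of -0.05 and -0.07. ME1, malic enzyme 1, fell in KO1 (log2 -1.001, SE 0.17, limma adjusted p = 0.00178) and not in KO2 (log2 0.44, limma adjusted p = 0.0793). IDH1, the cytosolic isocitrate dehydrogenase, fell in both clones, by a log2 change of -0.53 in KO1 and -0.59 in KO2. SLC25A1, the mitochondrial citrate carrier, fell in KO1 (log2 -0.65, limma adjusted p = 0.0244), a call lost in 4 of 17 settings, among them without KO1 replicate 2 (0.0649) and without KO1 replicate 3 (0.0885). MDH1 fell in KO2 (log2 -0.57, limma adjusted p = 0.0122).

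Of 10 fitted genes of the acetyl-CoA carboxylase partners and AMPK, 1 rose and 2 fell in each clone. ACACB, the mitochondrial-surface carboxylase, rose in KO2 (log2 0.89, SE 0.14, limma adjusted p = 0.00187), at 3.19 to 4.60 FPKM in KO2 and 1.22 to 1.98 FPKM in Vector. MID1IP1, which promotes polymerisation of ACACA, measured 2.12 to 3.41 FPKM in KO2 and 7.44 to 11.9 FPKM in Vector with a fall in KO2 (log2 -1.38, limma adjusted p = 0.00102). PRKAB2, a regulatory subunit of AMPK, rose in KO1 (log2 0.88, SE 0.12, limma adjusted p = 0.00051). PRKAG1 fell in both clones, by a log2 change of -0.47 in KO1 and -0.65 in KO2.

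In the elongation cycle 1 of 10 fitted genes rose and 6 fell in each clone, with a median log2 of -0.47 in KO1 and -0.46 in KO2. ELOVL7, an elongase of long acyl chains, fell in KO1 (log2 -1.39, SE 0.17, limma adjusted p = 0.000307) and in KO2 (log2 -1.13, SE 0.17, limma adjusted p = 0.00128). ELOVL2 fell in KO1 by a log2 change of -1.02 and stood at 0.02 in KO2, not passing. HACD1 fell in both clones, at -0.52 in KO1 and -0.78 in KO2, and TECR, the last reductase of the cycle, rose in both at 0.56 in KO1 and 0.60 in KO2. Without KO1 replicate 1 TECR did not pass in KO1 (0.0528), nor HACD1 with neighbours subtracted (0.0804). ELOVL5 fell in KO2 (log2 -0.46, limma adjusted p = 0.0447), a call lost in 11 of 17 settings, among them each that left out 1 library other than Vector replicate 3 or KO2 replicate 3 (0.072 to 0.141). With neighbours subtracted it stood at -0.013 (limma adjusted p = 0.957), and without both libraries that stood apart at -0.72 (limma adjusted p = 0.000127).

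Of 8 fitted desaturase and electron carrier genes, 1 rose in KO1 and 0 changed in KO2. The called gene, CYB5R2, was listed at 0 in all Vector libraries and measured 1.70 to 1.96 FPKM in KO1. FADS3, at 3.51 to 3.89 FPKM in KO1, 4.27 to 5.43 FPKM in KO2 and 2.81 to 4.90 FPKM in Vector, did not pass in either clone.

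For the control of SREBP processing, 1 of 13 genes rose and 4 fell in KO1, and 1 rose and 3 fell in KO2. INSIG1, which retains SREBP precursors in the endoplasmic reticulum and is itself a SREBP target, fell in KO1 (log2 -1.69, SE 0.10, limma adjusted p = 3.23e-06), at 12.1 FPKM in KO1 and 41.4 FPKM in Vector. In KO2 INSIG1 stood at -0.25 (limma adjusted p = 0.0753). MBTPS2, a protease that releases SREBPs, fell in both clones (log2 -0.79 in KO1 and -0.66 in KO2). RNF145 rose in both, by 0.40 in KO1 and 1.15 in KO2, and did not pass in KO1 without KO1 replicate 1 (0.0637) or 3 (0.0532). SREBF2 and SCAP, the sterol factor and the escort protein, did not pass in either clone, with log2 -0.32 in KO1 and 0.29 in KO2 for SREBF2, and 0.46 in KO1 and 0.51 in KO2 for SCAP. With Vector replicate 3 left out SCAP rose in KO1 (log2 0.70, limma adjusted p = 0.00695), and the KO2 value passed too (log2 0.75, limma adjusted p = 0.00592). In that fit SREBF2 rose in KO2 (log2 0.46, limma adjusted p = 0.0017) and stood at -0.15 in KO1 (limma adjusted p = 0.112).

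Among 13 other transcription factor genes of lipogenesis, 4 rose and 5 fell in KO1, and 3 rose and 2 fell in KO2. USF1 rose in KO1 (log2 1.13, SE 0.16, limma adjusted p = 0.000742). It also rose in KO2, at a log2 change of 0.463 to 0.786 over 17 other settings, a call lost in 6 of them. USF2 fell in both clones (log2 -0.76 in KO1 and -1.08 in KO2). With neighbours subtracted USF2 passed in neither, at -0.14 in KO1 and -0.39 in KO2. RXRA rose in KO2 (log2 1.08, SE 0.14, limma adjusted p = 0.000476). It rose in KO1 too (log2 0.453, limma adjusted p = 0.0295), a call lost in 7 of 17 settings. NR1H3, which encodes LXR alpha, fell in KO1 at 0.561 to 0.802 FPKM in KO1 and 1.32 to 1.80 FPKM in Vector. NR1H2, which encodes LXR beta, was more abundant and went the other way. It rose in KO1 (log2 1.06, SE 0.21, limma adjusted p = 0.00445), at 22.3 FPKM in KO1 and 10.5 FPKM in Vector, a call that held in all 17 settings. NR1H2 rose in KO2 too, a call lost in 6 of 17 settings. NFYA, a subunit of NF-Y, rose in KO1 by 0.44. The other subunit genes went differently in KO1: NFYB fell (log2 -0.52, limma adjusted p = 0.0404) and NFYC did not pass (log2 -0.12, limma adjusted p = 0.329).

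Among the 10 fitted genes of mitochondrial fatty acid synthesis 0 rose and 1 fell in KO1, and 0 rose and 3 fell in KO2. HSD17B8 fell in both (log2 -1.54 in KO1 and -1.21 in KO2). Of 9 acyl-CoA synthetases, 1 rose and 2 fell in KO1, and 3 rose and 4 fell in KO2. SLC27A1, a fatty acid transport protein, rose in KO1 (log2 1.38, SE 0.17, limma adjusted p = 0.000339) and in KO2 (log2 1.62, SE 0.17, limma adjusted p = 0.00018). SLC27A2 and SLC27A3, of the same family, fell in both clones, with log2 -1.19 in KO1 and -1.19 in KO2 for SLC27A2 and -1.49 in KO1 and -1.22 in KO2 for SLC27A3. The calls of all 3 held in all 17 other settings.

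Of 18 genes of glycerolipid synthesis, 4 rose and 6 fell in KO1, and 5 rose and 4 fell in KO2. LPIN1, a phosphatidate phosphatase, fell in KO1 (log2 -1.36, SE 0.09, limma adjusted p = 5.79e-06) and in KO2 (log2 -0.66, SE 0.09, limma adjusted p = 0.000619). GPAT3 rose in KO1 by 0.93 and also rose in KO2, where its log2 change was 0.443 to 0.589 over the 17 other settings. Both GPAT3 calls held in all of these. DGAT1 rose in KO2 by 0.89 and did not pass in KO1 (log2 0.265, limma adjusted p = 0.283). PNPLA3 fell in KO1, at 0.152 to 0.311 FPKM in KO1 and 1.39 to 2.15 FPKM in Vector.

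Of 15 fitted genes of fatty acid oxidation, 0 rose and 4 fell in KO1, and 2 rose and 2 fell in KO2. DECR1, an auxiliary enzyme for unsaturated fatty acids, fell in KO1 (log2 -1.01, SE 0.12, limma adjusted p = 0.000257). CPT1A, which takes acyl groups to the mitochondrion, rose in KO2 (log2 0.65, SE 0.15, limma adjusted p = 0.012), and with neighbours subtracted it did not pass (log2 0.32, limma adjusted p = 0.248).

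In the sterol synthesis and uptake list 1 of 16 fitted genes rose and 13 fell in KO1, with a median log2 of -0.65, and 2 rose and 3 fell in KO2, with a median of -0.08. Between the clones 0 were higher and 11 lower in KO1. HMGCS1 fell in KO1 (log2 -1.91, SE 0.15, limma adjusted p = 1.77e-05), and IDI1 fell in KO1 (log2 -1.96, SE 0.19, limma adjusted p = 8.09e-05) and in KO2 (log2 -0.70, limma adjusted p = 0.0245). The IDI1 call in KO2 was lost in 7 of 17 settings, among them without Vector replicate 1 or 2 or KO2 replicate 1 or 3 (0.0536 to 0.0831). SQLE fell in KO1 (log2 -1.28).

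Many counts of called list genes moved by over 1.5 times when 1 library was left out. The number called over all 16426 fitted genes moved as well. In KO1 it was 5609 with all libraries, 7367 without Vector replicate 3 and 3705 to 4004 without 1 KO1 library. In KO2 it was 4586 with all libraries, 6531 without Vector replicate 3 and 3203 to 4423 without 1 other library. List counts of these fits are to be read against those numbers. For SREBP processing, where 5 were called in KO1 and 4 in KO2, the count was 8 in KO1 and 9 in KO2 without Vector replicate 3. It was 2 or 3 in KO1 when any 1 KO1 library was left out, and 2 in KO2 when any 1 of the other 8 libraries was. For the sterol list, where 5 were called in KO2, it was 9 without Vector replicate 3 and 2 or 3 when any 1 other library except KO2 replicate 2 was left out.

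For acetyl-CoA supply in KO1 the count was 2 without KO1 replicate 2 or 3, against 4 with all libraries. For fatty acid oxidation in KO1 it was likewise 2 without KO1 replicate 2 or 3, against 4. For glycerolipid synthesis in KO1 it was 6 without KO1 replicate 1 or 2, against 10. For the other transcription factors in KO1 it was 5 when Vector replicate 2 or any 1 KO1 library was left out, against 9, and in KO2 it was 3 without Vector replicate 1, Vector replicate 2 or KO2 replicate 1, against 5. For acyl-CoA synthetases in KO2 it was 3 without replicate 1 or 2 of Vector or of KO2, against 7. Without Vector replicate 3 the count was 4 in KO1 and 2 in KO2 for desaturases and carriers, against 1 and 0, and 6 in KO1 for mitochondrial fatty acid synthesis, against 1. Without KO2 replicate 3 these counts in KO1 were 2 for the carriers and 3 for mitochondrial synthesis.

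With Vector replicate 3 and KO2 replicate 3 left out together, where 56.8% of all genes were called in KO1 and 49.5% in KO2, list counts were mostly higher too. For example 9 rose and 8 fell in KO1 for glycerolipid synthesis, 2 rose and 8 fell in KO1 for fatty acid oxidation, and 5 rose and 5 fell in KO2 in the sterol list. The sterol count in KO1 was then 15 of 16, against 14.

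**Figure D5:**
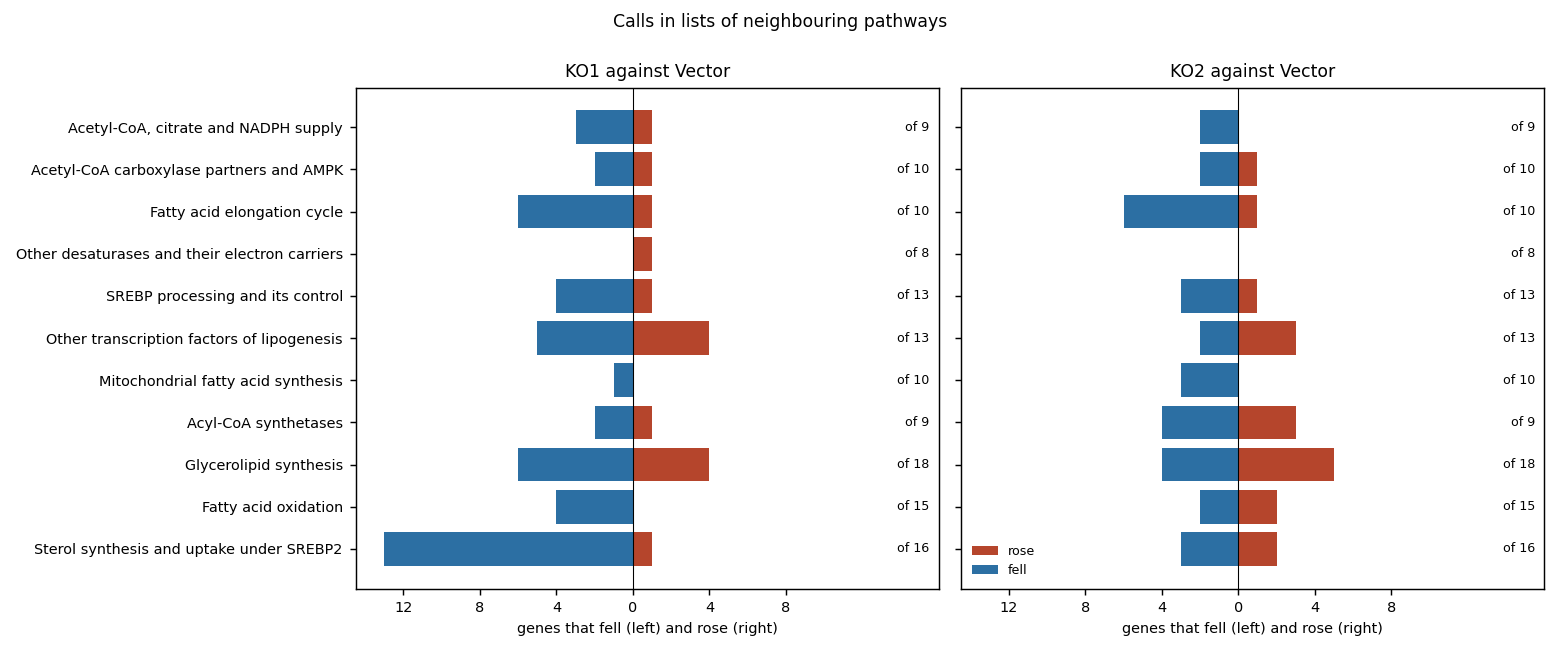
Number of fitted genes of each list that rose and fell in KO1 and in KO2 against Vector at a limma adjusted p under 0.05, as bars right (rose) and left (fell) of 0, with the number fitted at the right edge. In the sterol list 13 of 16 fell in KO1 and 3 of 16 in KO2. Over all fitted genes 34.1% were called in KO1 and 27.9% in KO2, in either direction.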

How the data were processed

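RNA from 3 libraries each of KO1, KO2 and Vector was analysed. The authors deposited FPKM, which are reads scaled by exon length and by a total for each library. In all 9 libraries that total was proportional to a size factor, the median over genes of reads relative to their geometric mean. It was not the sum of recovered reads: in KO2 replicate 2 it was 17921618, against 16654780 recovered reads. Library size scaling puts the recovered reads in place of that total. The submitters' processing notes name featureCounts 1.5.0-p3, HISAT2 2.0.5, CASAVA 1.6 and the build hg38, while options and strand setting are not stated in the sources used here. Positions are from GENCODE 29. FPKM times the exon length of GENCODE was whole within 0.02 for 100% of values and gave 16002212 to 17090445 reads per library. Precision is limited by 3 libraries per group. The 16426 genes whose mean reached 0.5 FPKM were fitted as log2(FPKM + 1) with limma 3.58.1 (R 4.3.3, trended empirical Bayes, group as the only term, all 9 libraries). Adjusted p is Benjamini-Hochberg over all fitted genes. Other settings were a replicate block, a pseudocount of 0.1, no filter, library size scaling, the 2 groups compared alone, each library left out, both libraries that stood apart left out, and the median of neighbours within 5 Mb subtracted. Added after seeing the data was limma-voom on recovered reads. The 10 members and the 11 lists were chosen with earlier results of these data known. Named genes are all members, up to 2 rising and 2 falling genes per list and clone with the smallest p, 7 genes taken whatever their values, and the 5 genes most like FASN and SCD. Some genes that this rule picks are not reported here. Promoter sequences are from RefSeq.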

Additional observations from a re-analysis of the deposited data

Results flagged for a closer look

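For 6 genes the change in KO1 differed from that in KO2 by the direct test between the clones in limma. The log2 difference, KO1 minus KO2, was -1.10 for SREBF1 (adjusted p = 0.00424), -0.53 for ACLY (0.00748), -1.24 for ACACA (0.000794), -1.78 for FASN (0.0011), -1.23 for SCD (0.00019) and -0.52 for FADS1 (0.00452). All 3 KO1 libraries were below all 3 KO2 libraries for each of them. BCKDK itself was higher in KO1 than in KO2, at 1.88 FPKM in KO1 and 0.497 FPKM in KO2.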

How the results depend on the processing

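The direction and call of the 7 genes called in KO1 against Vector and of the 6 lower in KO1 than in KO2 held in all 17 other settings. In KO2 against Vector 5 genes were called, 3 with no filter, 2 with the 2 groups compared alone, and 2 to 5 with each library left out in turn; the lowest came without Vector replicate 1 or KO2 replicate 1. The leave-one-out ranges were 7 to 8 in KO1 against Vector and 6 to 7 between the clones. The replicate block called 7, 4 and 6 genes in KO1, in KO2 and between the clones, and the block removed the ACSS2 call in KO2. The labels do not say whether replicate numbers pair the libraries. With group means removed, same-numbered libraries of different groups correlated at -0.202 to 0.142 and differently numbered ones at -0.261 to 0.251. With 3 libraries per group these values cannot decide whether the numbers share a batch. Over all genes 3705 to 7367 were called in KO1, 3203 to 6531 in KO2 and 3337 to 6756 between the clones with 1 library left out, the lowest without KO1 replicate 2, Vector replicate 1 and KO1 replicate 1, and 3359 between the clones without KO1 replicate 2. Without both libraries that stood apart the counts were 9335, 8138 and 7834, and with the 2 groups alone 2963 in KO2.

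Changes of sign, each in a value that had not passed, were as follows, and the cause was not tested. In KO2 against Vector SREBF1 was -0.38 to 0.015 over the fits with 1 library left out, highest without Vector replicate 3, and 0.143 in the fit that omits both libraries that stood apart. FASN was -0.482 to 0.1 and 0.005 in the same fits. ACACA was -0.233 at the lowest with 1 library left out, 0.054 without Vector replicate 3, 0.076 without KO2 replicate 1, 0.102 without KO2 replicate 2 and 0.208 with neighbours subtracted. ELOVL6 was -0.055 in KO2 without both libraries. ACSS2 between the clones was -0.036 with library size scaling and -0.079 with neighbours subtracted. FADS3 in KO1 was -0.002 with library size scaling, -0.047 and -0.001 without Vector replicates 1 and 2, 0.267 at the highest with 1 library left out and -0.181 with neighbours subtracted, and SLC25A1 in KO2 was -0.028 without Vector replicate 2 and 0.326 without Vector replicate 3. The planned count tests were not run, and limma-voom on the recovered reads, used in their place, called 7, 5 and 6 of the 10 genes in KO1, in KO2 and between the clones. With 3 libraries per group, small changes of genes under a few FPKM can be missed.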
